A study of Mus musculus with 6 samples.

Results

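The genes described here build the acetylcholine receptor of skeletal muscle and the neuromuscular junction around it. They were taken from a list of 10 gene symbols, *Chrna1*, *Chrnb1*, *Chrnd*, *Chrng*, *Musk*, *Rapsn*, *Dok7*, *Lrp4*, *Ache* and *Agrn*, matched through GENCODE M21 to the gene identifiers of the expression tables. Of these, 9 were among the 14548 genes measured, and *Chrnd* was not analysed here. The list was chosen with earlier results of these data known, so its counts beside the shares of all genes are descriptive only. Expression was measured by RNA-seq in C2C12 cells, a mouse line of myoblasts, which are the precursors of muscle fibers. The WT group had 3 libraries of unedited C2C12 cells. The MSTN-KO group had 3 libraries of the line C11, made from C2C12 cells by electroporation of a CRISPR/Cas9 plasmid whose guide targeted the third exon of *Mstn*, the gene for myostatin. In the labels the strain C11 also stands beside WT, so the genotype in the labels was used for grouping. All cells came from one line, were grown in serum medium without a nerve, and no treatment other than the editing is given. One edited line stands for the knockout, and nothing in the labels says that the replicates were separate cultures, so the p-values below measure only the spread between these libraries.

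The muscle acetylcholine receptor is a channel of several subunits that opens when the motor nerve releases acetylcholine. In embryonic and cultured muscle it holds alpha1 with beta1, gamma and delta subunits, and in adult muscle the epsilon subunit (*Chrne*, not analysed here) takes the place of gamma. Nerve agrin binds LRP4, which activates the kinase MuSK together with the adaptor DOK7, and rapsyn then anchors the receptors in dense clusters. Genes of the receptor are known to be switched on by the myogenic factors, such as myogenin, when myoblasts differentiate, and to be restricted to the nuclei under the nerve later on.

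Expression was given as FPKM, the number of fragments of a gene scaled by its exon length and by the mapped fragments of the library, which allows levels to be compared between genes per unit of length. The FPKM values summed to between 723705 and 764524 in the WT libraries and to between 856314 and 999579 in the MSTN-KO libraries, and every gene's share moves with that sum. The number of fragments is unknown. The peak of the ratios to WT replicate 1 among genes under 0.1 FPKM, with 57 to 72 genes of 453 to 653 near it, gave a rough relative depth. It lay between 0.862 for MSTN-KO replicate 1 and 1.13 for WT replicate 2. *Mstn* itself was at no more than 0.0399 FPKM in the WT libraries and 0.0586 FPKM in the MSTN-KO libraries, too low to check the labels. Of the myoblast markers *Myod1*, *Myf5*, *Pax7*, *Des* and *Cdh15*, 4 were measured and all were above 0 in every library, with a summed level of 714 to 989 FPKM in WT and 432 to 523 FPKM in MSTN-KO. That sum was mostly *Des*, and of the 4 markers 2 were called lower (*Myod1* and *Des*) and 1 higher (*Pax7*, log2 change 0.64, adjusted p by limma = 0.0415). Of 7 neuron markers 2 were measured, at no more than 0.232 FPKM in any library, and of 5 Schwann cell markers 4 were measured, at no more than 1.22 FPKM. One library stood apart within its group. WT replicate 3 had 47.3 FPKM of *Myog*, the gene for myogenin, against 175 FPKM in WT replicate 1 and 148 FPKM in WT replicate 2. The results that follow are therefore also given without WT replicate 3 where their call changes.

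The MSTN-KO and WT groups were compared with limma on log2(FPKM + 1) over the 10837 genes that reached 1 FPKM in any library. On this scale the change of a gene with low FPKM is understated. A gene was called when its Benjamini-Hochberg adjusted p over all these genes was under 0.05, and 8.96% of the genes tested were called lower and 8.78% higher in MSTN-KO. Of the 9 measured junction genes, 8 passed the filter and *Ache* did not. Of the 8, 4 were called lower (*Chrng*, *Dok7*, *Chrna1* and *Chrnb1*) and 0 higher by limma, where also 0 were higher at an unadjusted p under 0.05. Without WT replicate 3, 5 were called lower, and without WT replicate 2, 3 were. In these bulk cultures fewer differentiating cells and less RNA per cell cannot be told apart. The study's criteria ask for a p-value below 0.05, taken here as unadjusted, together with a log2 change of more than 1. Applied to the limma fit, they gave 3 genes (*Chrng*, *Dok7* and *Chrna1*) downregulated and 0 upregulated, against 2.3% and 1.21% of the genes tested. These are not the study's own calls, which came from other software. The median log2 fold change of the 8 genes was -0.54 and that of all genes tested was 0.00 after rounding (-0.00078). Scaling all libraries to the same sum moved the median of all genes to -0.26 and the calls over all genes to 2425 lower and 360 higher, from 971 and 952, and with it 7 of the 8 junction genes were called lower. Scaling by the percentile 75 gave 1199 lower and 755 higher.

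**Figure D1:**
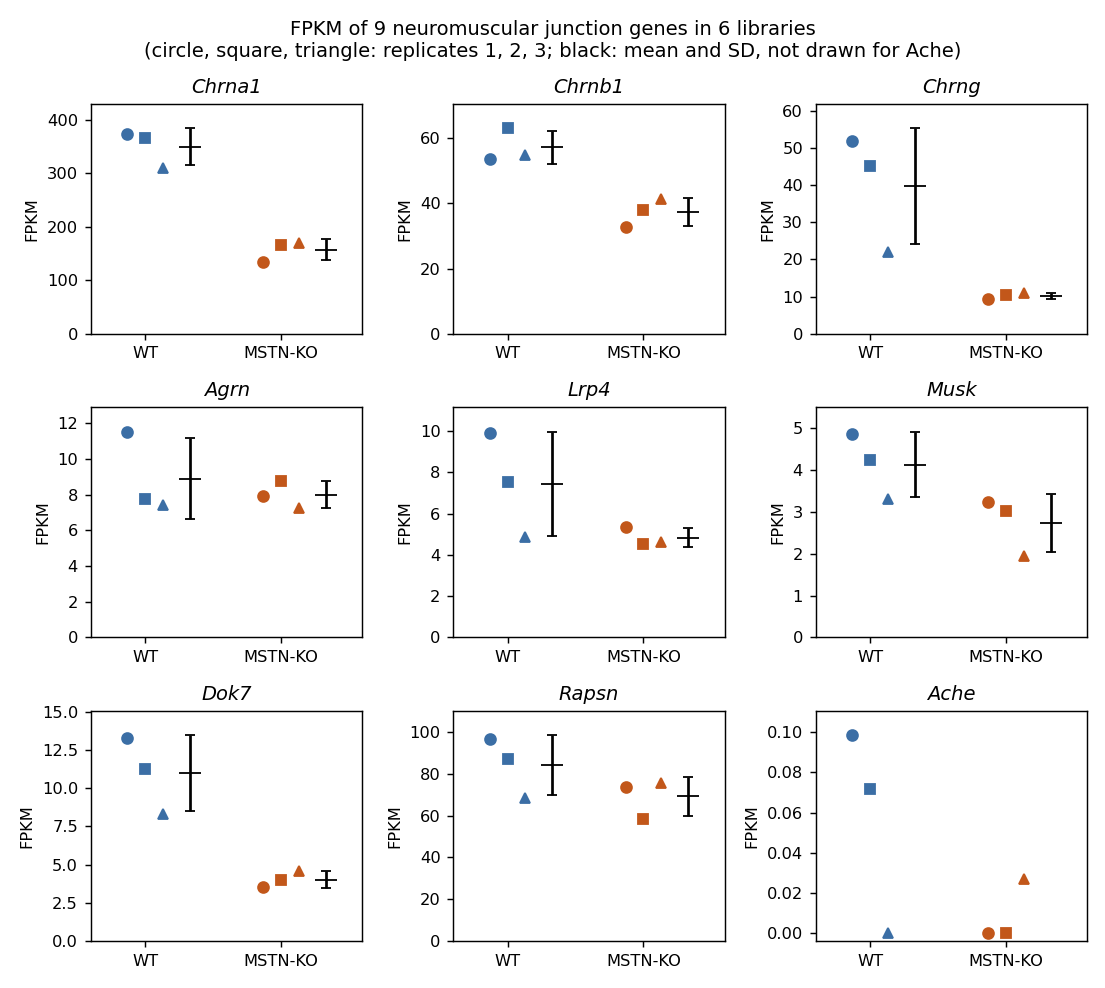
FPKM of the 9 measured junction genes (y axis, linear from 0) in the WT and MSTN-KO libraries (x axis). Each point is 1 library, with circle, square and triangle for replicates 1, 2 and 3, and the black bar is the group mean with its SD, left out for *Ache*, which is listed at 0 in 3 libraries. *Chrna1*, *Chrnb1*, *Chrng*, *Dok7* and *Musk* show no overlap between the groups, and *Agrn*, *Lrp4* and *Rapsn* overlap.

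The 3 measured receptor subunit genes were all called lower in MSTN-KO, by unequal amounts. *Chrng* (ENSMUSG00000026253, chromosome 1, 87204657 to 87212694 in GRCm38) encodes the gamma subunit, which marks the embryonic form of the receptor. The WT libraries gave 51.9, 45.0 and 22.1 FPKM, and the MSTN-KO libraries gave 9.31, 10.4 and 11.001 FPKM. WT replicate 3 was at less than the other WT libraries and still above every MSTN-KO library. The MSTN-KO mean of 10.2 ± 0.854 FPKM was 25.8% of the WT mean of 39.6 ± 15.6 FPKM (SD, n = 3). The log2 change was -1.77 (SE 0.24, 95% confidence interval -2.29 to -1.25, adjusted p by limma = 0.000302), the 73rd lowest of the 10837 genes tested. Without WT replicate 3 it was -2.14. The 627 tested genes of chromosome 1 had a median log2 fold change of -0.25, and the part of this in the value of *Chrng* was not tested. Chromosome 2, with *Chrna1*, *Lrp4* and *Rapsn*, had a median of 0.11 over 882 tested genes. Chromosomes 4, 5 and 11, with the other tested junction genes, had medians of 0.014, -0.055 and 0.026.

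*Chrna1* (ENSMUSG00000027107, chromosome 2, 73563215 to 73580338) encodes the alpha1 subunit, which carries the main part of the acetylcholine binding site. Replicates 1 to 3 of WT gave 373, 365 and 310 FPKM, and the MSTN-KO libraries gave 134, 165 and 170 FPKM. The groups were far apart compared with the spread inside each. The mean was 349.7 ± 34.1 FPKM in WT and 156.6 ± 19.7 FPKM in MSTN-KO (SD, n = 3), a log2 change of -1.16 (SE 0.14, adjusted p by limma = 8.49e-05). In both groups it was the most abundant of the junction genes, at percentile 97.9 of all genes measured in WT and 95.2 in MSTN-KO. *Chrnb1* (ENSMUSG00000041189, chromosome 11, 69784036 to 69795943) encodes the beta1 subunit. The WT libraries gave 53.7, 63.0 and 54.8 FPKM, and the MSTN-KO libraries gave 32.9, 37.9 and 41.4 FPKM, again with no overlap. The mean fell from 57.2 ± 5.12 to 37.4 ± 4.28 FPKM (SD, n = 3), a log2 change of -0.60 (SE 0.13, adjusted p by limma = 0.00759). This call was lost when WT replicate 2 was left out (-0.53, adjusted p by limma = 0.0562).

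Summed over *Chrna1*, *Chrnb1* and *Chrng*, the subunit mRNAs were at 479, 474 and 387 FPKM in WT replicates 1 to 3, compared with 176, 214 and 223 FPKM in those of MSTN-KO. The difference of the mean log2 sums was -1.13, with no overlap between the groups (two-sided exact permutation test, p = 0.1, the smallest that 3 libraries against 3 allow). *Chrna1* made up 77.2% to 80.2% of the sum in WT and 76.1% to 77.4% in MSTN-KO. *Chrnb1* made up 11.2%, 13.3% and 14.2% in WT replicates 1 to 3, compared with 18.7%, 17.7% and 18.6% in those of MSTN-KO. *Chrng* made up 10.8%, 9.50% and 5.69% in WT replicates 1 to 3, compared with 5.28%, 4.86% and 4.94% in those of MSTN-KO. WT replicate 3 was therefore close to the MSTN-KO libraries in the share of *Chrng*, but not in the sum.

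Ratios within a library hardly depend on how the libraries were scaled, and 3 were tested. The log2 ratio of *Chrnb1* to *Chrna1* was -2.77, -2.52 and -2.48 in WT replicates 1 to 3, compared with -2.00, -2.10 and -2.01 in those of MSTN-KO. It was higher by 0.55 in MSTN-KO, without overlap between the groups (two-sided exact permutation test, p = 0.1, adjusted p = 0.2 over the 3 ratios). No smaller p can be had from 3 libraries a group, so this difference could not pass a threshold of 0.05. The log2 ratio of *Chrng* to *Chrna1* was -2.82, -2.99 and -3.76 in WT replicates 1 to 3, compared with -3.71, -3.87 and -3.84 in those of MSTN-KO. On this scale the groups overlapped through WT replicate 3 (difference -0.61, exact permutation test, p = 0.2, adjusted p = 0.2). With 0.1 FPKM added in place of 1 the groups separated, but only narrowly (difference -0.69, exact permutation test, p = 0.1). WT replicate 3 lay close to the MSTN-KO libraries with either pseudocount. Without that library the difference was -0.90.

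**Figure D2:**
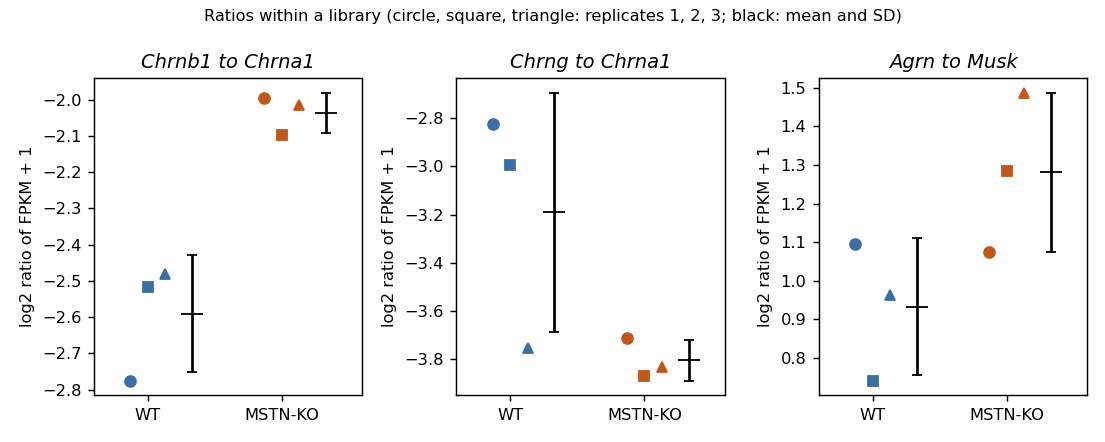
Log2 ratios of FPKM + 1 within each library (y axis, not from 0) for *Chrnb1* to *Chrna1*, *Chrng* to *Chrna1* and *Agrn* to *Musk*, in WT and MSTN-KO (x axis). Points are libraries, with circle, square and triangle for replicates 1, 2 and 3, and black bars are group means with SD. The *Chrnb1* to *Chrna1* ratio lies between -2.77 and -2.48 in WT and between -2.10 and -2.00 in MSTN-KO. The other ratios overlap on this scale and separate only narrowly with a pseudocount of 0.1.

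The promoters of the 4 genes called lower are shown because receptor genes are a textbook case of control through the E-box, the six-base site CANNTG bound by the myogenic factors. RefSeq sequences on GRCm38.p6 held a start for 7 of the 9 measured junction genes, in 9 windows of 250 bases before the start. The search covered both strands, which for this motif give the same sites. Each window is written 5′ to 3′ along the gene and ends at the base before the start, with E-boxes in capitals. The *Chrng* start of RefSeq lies inside the span that GENCODE gives the gene.
*Chrng*, chr1:87205561-87205810, plus strand: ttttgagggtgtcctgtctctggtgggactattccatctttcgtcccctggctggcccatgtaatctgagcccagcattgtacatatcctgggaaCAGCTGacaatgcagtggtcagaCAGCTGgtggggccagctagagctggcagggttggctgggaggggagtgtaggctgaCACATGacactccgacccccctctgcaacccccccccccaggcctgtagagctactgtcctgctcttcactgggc
*Chrna1*, chr2:73580339-73580588, minus strand: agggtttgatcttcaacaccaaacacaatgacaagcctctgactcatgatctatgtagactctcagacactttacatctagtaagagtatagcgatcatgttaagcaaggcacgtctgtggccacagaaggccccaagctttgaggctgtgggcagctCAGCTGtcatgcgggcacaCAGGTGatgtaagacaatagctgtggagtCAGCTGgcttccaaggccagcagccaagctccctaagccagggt
*Chrnb1*, chr11:69795938-69796187, minus strand: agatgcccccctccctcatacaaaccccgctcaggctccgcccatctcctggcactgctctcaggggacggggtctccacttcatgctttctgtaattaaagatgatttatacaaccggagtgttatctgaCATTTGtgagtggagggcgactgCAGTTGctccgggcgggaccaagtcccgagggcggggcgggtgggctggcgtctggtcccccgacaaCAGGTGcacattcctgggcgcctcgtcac
*Dok7*, chr5:35056516-35056765, plus strand: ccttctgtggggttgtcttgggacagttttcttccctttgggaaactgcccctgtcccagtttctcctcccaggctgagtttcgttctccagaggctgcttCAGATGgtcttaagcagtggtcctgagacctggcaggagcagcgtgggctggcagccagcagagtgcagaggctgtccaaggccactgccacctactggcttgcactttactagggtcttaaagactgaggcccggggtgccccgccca
*Chrng*, *Chrna1*, *Chrnb1* and *Musk* held 3 E-boxes each. Of all 32851 windows of the same length, 66.2% held at least 1 E-box and 12.2% held at least 3. The form CAGCTG, which is counted among the E-boxes too, occurred at 2 places before *Chrna1* (its first base 44 and 92 bases before the start) and at 2 places before *Chrng* (132 and 155 bases before it), and at 1 place before *Musk*. In all windows, 13.001% held it at least once. *Dok7* had 1 E-box before the first of its starts and 0 before the other, *Agrn* had 1 before the start inside the gene and 0 before the outer start, and *Ache* had 1. The N-box CCGGAA, a site of ETS factors known from synaptic genes, was in 0 of the 9 windows and in 12.03% of all windows. *Musk*, with 3 E-boxes, was not called, and *Dok7*, with 1 and 0 before its starts, was called. Whether E-boxes had a part in any of the changes was not tested.

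**Figure D3:**
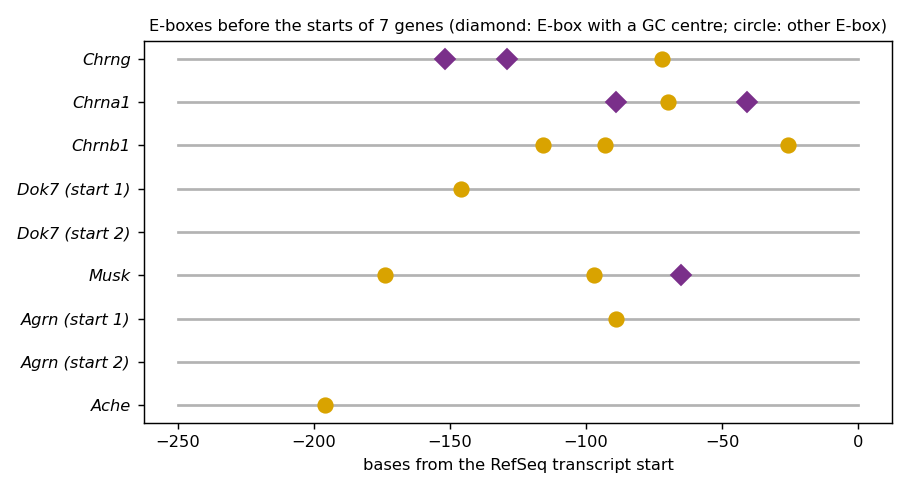
E-boxes in the 250 bases before the RefSeq starts of 7 junction genes, as distance from the start in bases (x axis, with the start at 0), 1 line per start (y axis). Genes with a pair of starts are numbered by position on the chromosome. Symbols stand at the centre of each site, diamonds for E-boxes with a GC centre and circles for other E-boxes. *Chrng*, *Chrna1*, *Chrnb1* and *Musk* carry 3 each.

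In the pathway that gathers the receptors, the adaptor gene *Dok7* fell and the other genes did not pass. *Dok7* (ENSMUSG00000044716, chromosome 5, 35056766 to 35087839) encodes the protein that binds MuSK inside the fiber and is needed for its activation. Replicates 1 to 3 of WT gave 13.3, 11.3 and 8.35 FPKM, and the MSTN-KO libraries gave 3.53, 3.96 and 4.58 FPKM. Every MSTN-KO library was far below every WT library. The mean was 10.97 ± 2.49 FPKM in WT and 4.02 ± 0.526 FPKM in MSTN-KO (SD, n = 3), a log2 change of -1.24 (SE 0.18, adjusted p by limma = 0.000423). *Dok7* ranked above *Agrn* and *Lrp4* by mean FPKM in WT and below both in MSTN-KO, although its range overlapped theirs in WT.

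*Musk* (ENSMUSG00000057280, chromosome 4, 58285960 to 58374303) encodes the muscle-specific receptor kinase. The WT libraries gave 4.86, 4.24 and 3.31 FPKM, and the MSTN-KO libraries gave 3.23, 3.02 and 1.95 FPKM. The groups did not overlap, but the lowest WT library (3.31 FPKM) and the highest MSTN-KO library (3.23 FPKM) were close. The log2 fold change of -0.47 (SE 0.19, 95% confidence interval -0.87 to -0.06) did not pass (adjusted p by limma = 0.101). In all, 5 of the 8 tested junction genes had every MSTN-KO library below every WT library, against 18.1% of all genes tested, and 0 had every MSTN-KO library above, against 19.3%. Because the list was chosen with earlier results known, these counts do not measure an excess free of that choice. *Lrp4* (ENSMUSG00000027253, chromosome 2, 91457511 to 91513779), the agrin receptor, gave 9.91, 7.52 and 4.86 FPKM in the WT libraries, compared with 5.36, 4.53 and 4.62 FPKM in MSTN-KO. WT replicate 3 lay within the MSTN-KO range. Its log2 change was -0.49 (SE 0.20, adjusted p by limma = 0.115), and it passed without WT replicate 3 (-0.73, adjusted p by limma = 0.0178).

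*Rapsn* (ENSMUSG00000002104, chromosome 2, 91035620 to 91045729), the gene for rapsyn, followed *Chrna1* as the most abundant junction gene. Replicates 1 to 3 of WT gave 96.8, 87.0 and 68.6 FPKM, and the MSTN-KO libraries gave 73.7, 58.3 and 75.7 FPKM, and the groups overlapped. The log2 change was -0.27 (SE 0.15, 95% confidence interval -0.60 to 0.06, adjusted p by limma = 0.235). In the annotation a noncoding transcript on the other strand, Gm13778, overlaps *Rapsn*, and the counting is not stated to use strand. *Agrn* (ENSMUSG00000041936, chromosome 4, 156165290 to 156197488) encodes agrin, made by nerve and in other splice forms by muscle, and gene totals do not part these forms. The WT libraries gave 11.5, 7.77 and 7.40 FPKM, and the MSTN-KO libraries gave 7.92, 8.78 and 7.26 FPKM. Only WT replicate 1 was above the MSTN-KO libraries. The log2 change was -0.12 (SE 0.17, 95% confidence interval -0.49 to 0.25, adjusted p by limma = 0.670), and without WT replicate 1 it was 0.063. Of the 8 tested junction genes it had the smallest difference, and its interval leaves out a fall as large as those measured for *Chrng*, *Chrna1* and *Dok7*. The log2 ratio of *Agrn* to *Musk* was 0.93 ± 0.178 in WT and 1.28 ± 0.206 in MSTN-KO (SD, n = 3), with overlap (difference 0.35, exact permutation test, p = 0.2, adjusted p = 0.2). Here too the groups separated with a pseudocount of 0.1, but only narrowly (difference 0.47, exact permutation test, p = 0.1).

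*Ache* (ENSMUSG00000023328, chromosome 5, 137287519 to 137294466) encodes acetylcholinesterase, which clears acetylcholine from the cleft. It stood at 0.0989 FPKM in WT replicate 1, 0.0718 FPKM in WT replicate 2 and 0.0270 FPKM in MSTN-KO replicate 3, and is listed at 0 in the other 3 libraries. It did not reach the filter, and no difference was tested. A noncoding gene on the other strand, Gm42456, overlaps it in the annotation. *Colq*, whose collagen tail holds the esterase in the synaptic matrix, was also low, between 0 and 0.0426 FPKM in MSTN-KO and between 0.0336 and 0.0731 FPKM in WT.

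**Figure D4:**
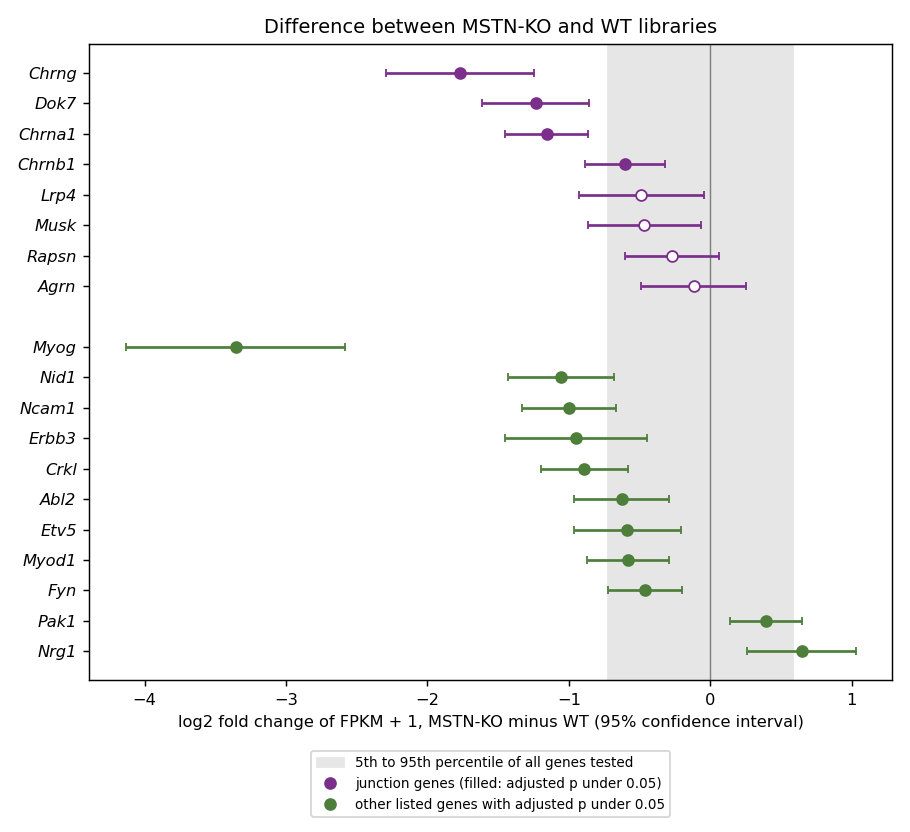
Log2 fold change of FPKM + 1, MSTN-KO minus WT (x axis), with 95% confidence intervals, for the 8 tested junction genes (purple, filled where the adjusted p was under 0.05) and for 11 of the 12 other listed neuromuscular genes that passed (green). The grey band spans the 5th to 95th percentile of all 10837 genes tested, -0.72 to 0.59. *Chrng*, *Dok7* and *Chrna1* lie outside it with their whole intervals.

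By mean FPKM the order in WT was *Chrna1*, *Rapsn*, *Chrnb1*, *Chrng*, *Dok7*, *Agrn*, *Lrp4*, *Musk* and *Ache*. The first 4 did not overlap with each other in WT, whereas *Dok7*, *Agrn* and *Lrp4* overlapped. In MSTN-KO the first 4 kept this order without overlap, and *Agrn* followed at 7.99 FPKM, *Lrp4* at 4.84 FPKM and *Dok7* at 4.02 FPKM, where the ranges of *Lrp4* and *Dok7* overlapped. The distance between *Chrna1* and *Musk* was wide in both groups.

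The WT libraries differed among themselves in the same genes. WT replicate 3 was the lowest WT library for 7 of the 8 tested genes, all but *Chrnb1*, against 38.4% of all genes tested. WT replicate 1 was the highest for 7 of the 8, against 47% of all genes tested. The median difference from the WT mean over the 8 genes, in log2 units, was 0.25, 0.061 and -0.26 in WT replicates 1 to 3, compared with -0.57, -0.57 and -0.66 in those of MSTN-KO. Over all genes tested it lay between -0.024 and 0.037 in each of the 6 libraries. *Myog* moved in the same direction, by 0.70, 0.46 and -1.16 in WT replicates 1 to 3, compared with -3.70, -3.27 and -3.10 in those of MSTN-KO. For *Rapsn*, *Lrp4* and *Agrn*, WT replicate 3 lay within the MSTN-KO range, and for *Chrna1*, *Chrnb1*, *Chrng*, *Dok7* and *Musk* it lay above every MSTN-KO library. The 5 measured myotube markers, *Myog*, *Mymk*, *Ckm*, *Myh3* and *Tnnt3*, were all called lower in MSTN-KO, against 8.96% of all genes tested. Their summed level was 77.6 to 291 FPKM in WT and 18.9 to 26.6 FPKM in MSTN-KO, and their part in the differences of the junction genes was not tested.

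**Figure D5:**
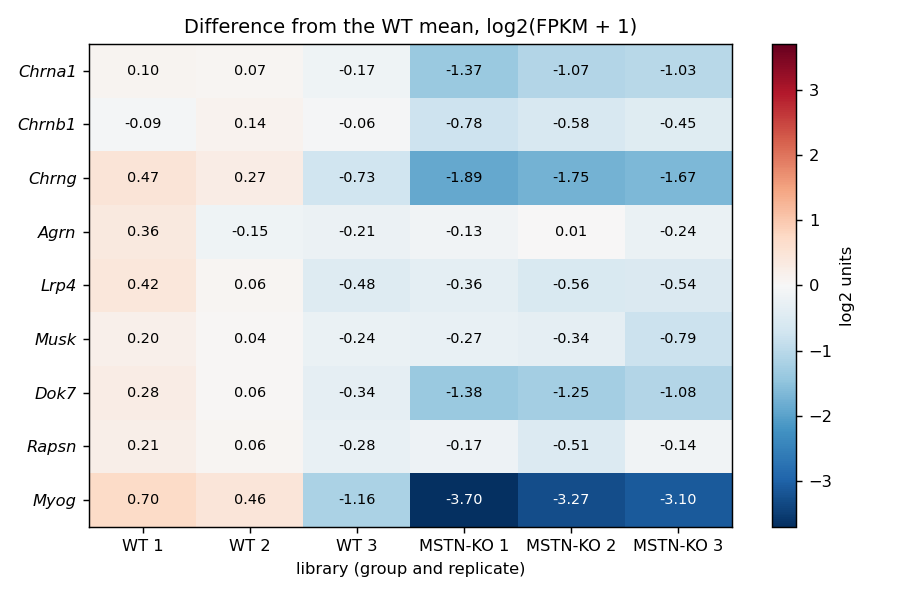
Difference of each library from the WT mean in log2(FPKM + 1), as color and printed value, for the 8 tested junction genes and *Myog* (rows) in the 6 libraries (columns, group and replicate). *Myog* and *Chrng* are lowest in the MSTN-KO libraries and lower in WT replicate 3 (-1.16 and -0.73) than in the other WT libraries.

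A wider set of 59 other genes linked to the junction was also read, of which 45 were measured and 38 tested. Of these 10 were called lower and 2 higher, against 8.96% and 8.78% of all genes, and the median log2 fold change was -0.20. Among the other postsynaptic genes, *Ncam1*, a cell adhesion gene of myoblasts and the junction, went from 34.9 ± 6.08 to 16.8 ± 2.14 FPKM (SD, n = 3), a log2 change of -1.001 (adjusted p by limma = 0.000773).

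Of 18 partners of MuSK signaling, all tested, 3 were called lower and 1 higher, against 8.96% and 8.78% of all genes tested. *Crkl*, an adaptor that binds DOK7, fell by 0.89 on the log2 scale, from 12.2 ± 0.582 to 6.13 ± 0.756 FPKM (SD, n = 3, adjusted p by limma = 0.00104). The kinase genes *Abl2* and *Fyn* were lower by log2 fold changes of -0.63 and -0.46, and the call was lost without WT replicate 1 for *Abl2* and without WT replicate 2 or MSTN-KO replicate 1 for *Fyn*. *Pak1*, a kinase that acts on actin, was higher by 0.40 (adjusted p by limma = 0.0351), a call lost under 9 of 14 alternatives. The other 14 partners did not pass. The list's median log2 fold change was -0.16.

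Of 5 tested matrix genes only *Nid1* was called, where 8.96% of all genes tested were called lower and 8.78% higher. It was lower by a log2 change of -1.06 (adjusted p by limma = 0.00133), from 129.5 ± 16.6 to 62.8 ± 16.4 FPKM. It encodes nidogen, a linker of basement membranes. The other 4 did not pass. In the neuregulin and ETS list of 6 tested genes, 2 were called lower and 1 higher, beside the same shares of all genes tested. The receptor gene *Erbb3* (log2 fold change -0.95, adjusted p by limma = 0.0139) and the ETS factor *Etv5* (-0.59, adjusted p by limma = 0.0353) were called lower, and the ligand gene *Nrg1* higher (0.65, adjusted p by limma = 0.0242). Among the fits with a library left out, these calls were lost without WT replicate 1 or MSTN-KO replicate 3 for *Erbb3*, without each of the WT libraries in turn or MSTN-KO replicate 1 for *Etv5*, and without WT replicate 2, WT replicate 3 or MSTN-KO replicate 1 for *Nrg1*. With no filter on low values the calls of *Erbb3* and *Etv5* were lost, with quantile normalization that of *Etv5*, and with scaling to the same sum that of *Nrg1*. The other 3 did not pass.

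Among 5 tested regulators of the receptor genes, 2 were called lower, against 8.96% of all genes tested. *Myog* went from 123 ± 67.3 to 9.72 ± 2.18 FPKM (SD, n = 3), a log2 change of -3.36 (adjusted p by limma = 3.98e-05), and of -3.94 without WT replicate 3. Like *Chrng*, *Myog* lies on chromosome 1, and the part of that chromosome's median of -0.25 in the value of *Myog* was not tested. *Myod1* went from 145 ± 20.996 to 96.1 ± 6.69 FPKM, a log2 change of -0.58 (adjusted p by limma = 0.00986). The other 3 did not pass. Of 11 neuronal nicotinic subunit genes only 2 were measured, at no more than 0.0863 FPKM. Of 4 fibroblast markers 3 were measured, and the 1 that was tested, the collagen gene *Col3a1*, was called higher in MSTN-KO. The summed level of these markers was 173 to 241 FPKM in WT and 311 to 368 FPKM in MSTN-KO, and nearly all of it was *Col3a1*. Mean levels of the others were low, at 0.617 FPKM in WT and 0.606 FPKM in MSTN-KO for *Pdgfra* and 0.088 and 0.448 FPKM for *Dpt*. The part of these markers in the results was not tested.

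The 5 genes whose centred log2 values over the 6 libraries lay nearest to those of *Chrna1* by Euclidean distance were *Pfkp*, *Slc2a10*, *Col18a1*, *Chml* and *2510009E07Rik*, at distances from 0.195 to 0.260. *Pfkp*, for the platelet form of phosphofructokinase, was at 45.0 ± 2.36 FPKM in WT and 21.4 ± 1.87 FPKM in MSTN-KO (SD, n = 3). *Dok7* was the nearest of the junction genes at 0.294, the 14th of 10836 genes, and *Chrnb1* and *Chrng* ranked 349th and 1205th. This distance depends largely on the size of the change between the groups. The log2 change was -1.16 for *Chrna1*, -1.24 for *Dok7*, -0.60 for *Chrnb1* and -1.77 for *Chrng*. *Lrp4*, which was not called, ranked 1147th and so nearer than *Chrng*. The order is a description over 6 libraries in 2 groups, and shared regulation of *Chrna1* with any of these genes was not tested.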

How the data were processed

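Libraries of C2C12 RNA, 3 of WT and 3 of MSTN-KO, were grouped by their labels. The authors computed FPKM per gene and deposited 1 table per library, without pooling. The submitters' processing notes name Bowtie 0.12.2 and mm8. The counting tool, annotation and gene filter are not given in the sources used here, and the number of fragments is unknown. Symbols and positions came from GENCODE M21 (GRCm38), which named 14445 of 14548 identifiers, and the tables hold no positions of their own.

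Genes reaching 1 FPKM in any library entered a limma 3.58.1 fit (R 4.3.3) of log2(FPKM + 1) on the group, using eBayes with a trend. Sums and ratios were compared with exact permutation tests in Python 3.11.15 with scipy 1.17.1. In a simulated data set with 10837 genes, 81% of 200 genes changed by 1 on the log2 scale were recovered and 6 unchanged genes were called. The changed genes were drawn from those above a cutoff of mean level, so recovery of low genes was not tested. The simulated noise was independent, with no difference of scale between libraries. All members were named, and of the other lists each gene with an adjusted p under 0.05, with *Chrne*, *Colq* and *Myog* in any case, and the 5 tested genes nearest to *Chrna1*, except that 1 gene of the other lists is counted but not reported here. The members, lists and markers were chosen with earlier results of these data known. The ratio of *Chrnd* to *Chrna1* was planned and could not be computed. The alternatives were a pseudocount of 0.1, other filters, no trend, 3 scalings, the replicate number as a block, the study's criteria and leaving out each library.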

Additional observations from a re-analysis of the deposited data

How the results depend on the processing

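The calls of *Chrng*, *Chrna1* and *Dok7* held under all 14 alternatives that refitted them, and that of *Chrnb1* under 13. Leaving out single libraries gave 3 to 5 junction genes called lower and 0 higher. With single libraries left out *Agrn* ran from -0.22 to 0.063, and was reversed only without WT replicate 1. Scaling to a sum of 1000000 called 7 junction genes lower, adding *Lrp4*, *Musk* and *Rapsn*. Relative to the median of all genes their log2 fold changes were then -0.49, -0.45 and -0.30, close to the values without scaling. The summed subunits were at -1.42 with this scaling, a value that still holds the shift of that median to -0.26. Of the other neuromuscular genes this scaling called 18 lower and 0 higher, and the study's criteria 4 and 0. The number called higher was 1 without trend, 1 with the percentile 75, 1 with the replicate block, and 0 to 2 with single libraries left out, when 7 to 13 were lower. Leaving out WT replicate 2 or MSTN-KO replicate 1 cut the calls over all genes from 1923 to 1029 or 1206. Same-numbered libraries did not deviate together (r = -0.015, -0.13 and -0.14 across genes for numbers 1, 2 and 3), so the numbers were not taken as pairs. The block changed no call of a junction gene, and left the summed subunits at -1.13 (exact sign-flip permutation p = 0.25, the smallest that 3 pairs allow). The ratios of *Chrng* to *Chrna1* and of *Agrn* to *Musk* overlapped between the groups with a pseudocount of 1 (p = 0.2) and separated narrowly with 0.1 (p = 0.1, two-sided exact permutation tests). With 3 libraries a group and unknown depth, differences of about the size seen for *Lrp4* and *Musk* could not be settled.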
